A study of Mus musculus with 4 samples.

Results

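The clustered protocadherin genes were examined in mouse embryonic stem cells with and without induced loss of Ogt, the gene of O-GlcNAc transferase. They were taken by symbol, as the alpha genes (Pcdha1 to Pcdha12, Pcdhac1 and Pcdhac2), the beta genes (Pcdhb1 to Pcdhb22) and the gamma genes (the Pcdhga, Pcdhgb and Pcdhgc series). This gave 58 members among the 25239 gene symbols of the count tables, with 14 in the alpha, 22 in the beta and 22 in the gamma cluster. All 58 lie on chromosome 18 of GRCm38, the assembly that mm10 names, between positions 36930285 and 37841873 of the RefSeq annotation. All cells carried the genotype Ogt fl/fl. Ogt iKO stands for 2 libraries of cells kept in 4-hydroxytamoxifen (4-OHT) over 6 days and then sorted as viable and positive for YFP. Control stands for 2 libraries of cells that received no 4-OHT. The labels describe YFP selection for the treated cells alone and no 4-OHT-treated cells with Ogt intact, so the ligand, the selection and the loss of Ogt cannot be told apart. They name no clone and do not say whether the replicates were separate cultures, so p values measure only the spread between these libraries.

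Clustered protocadherins are adhesion proteins of the cadherin superfamily, best known from neurons. Each alpha and gamma gene has a large variable exon of its own, with its own promoter, which is spliced to constant exons shared by the whole cluster, while beta genes consist of a variable exon alone. The variable exon encodes the ectodomain that recognises the same isoform on another cell, and the constant exons encode the shared end of the intracellular domain. Neurons express combinations of isoforms, and the choice among promoters involves CTCF, cohesin, distal enhancers and DNA methylation. The members near the end of the alpha and gamma clusters, called C-type (Pcdhac1, Pcdhac2, Pcdhgc3, Pcdhgc4 and Pcdhgc5), differ from the others in sequence and are used more uniformly among neurons.

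The shared exons limit what a count per gene can show. In the GENCODE exon models, which gave 57 of the 58 members (all but Pcdha10, since GENCODE gives the name Pcdha11 to a pair of genes, of which the one at the RefSeq position of Pcdha11 was used), exon bases shared with other members made up 38.0% to 54.9% of the exon length of each alpha gene and 27.8% to 66.8% of that of each gamma gene. Reads from constant exons were not credited to every member, since 8 alpha genes had 0 counts in all 4 libraries and single gamma genes had as few as 2. Whether some of these reads were credited to single members cannot be seen from the tables. Levels per length use the exon length a member does not share, and for alpha and gamma members they hold only where constant-exon reads were not counted. Exact copies of 50-base stretches of a member's own exon sequence in transcripts of other genes covered a median of 13.3% of alpha, 3.48% of beta and 1.01% of gamma members, and none of the C-type members. Reads from such stretches can map to several genes, so members with many copies are uncertain. The highest shares were 26.6% for Pcdha6 in the alpha cluster, 11.99% for Pcdhb12 in the beta cluster and 16.8% for Pcdhgb1 in the gamma cluster. The tables also list Gm37013, Gm38666 and Gm38667, gene models that RefSeq starts at the first exons of Pcdha4, Pcdha6 and Pcdha7 and runs to the end of the gamma cluster. All 3 had 0 counts in every library. How reads that fall in exons of several genes were counted is not given in the sources used here, so a count of 0 for Pcdha4, Pcdha6 or Pcdha7 does not show that the gene was silent. Exons of antisense transcripts lie under 46.1% of the own exon length of Pcdhgc3, 12.5% of that of Pcdhga1, 17.3% of that of Pcdhga7, 16.6% of that of Pcdhga8, 29.7% of that of Pcdhgb7, 52.4% of that of Pcdhga11, 9.28% of that of Pcdhga12 and all of that of Pcdhga10. In the other clusters they lie under 71.4% of that of Pcdha11, 21.5% of that of Pcdha12 and 63.5% of that of Pcdhb12, among others. Whether the counting used strand is not given in the sources used here, so reads of those transcripts may be part of the counts of these members.

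Library totals lay between 14668489 and 16504204 counts. Levels are given as CPM, counts per 1000000 counts on library sizes scaled by edgeR's TMM factors, and a count of 0 allowed up to 3 counts, or 0.175 to 0.195 CPM, counting error only. Ogt had 437 and 389 counts in the treated libraries against 2963 and 3108 in the controls (log2 fold change -2.96). All 8 pluripotent markers were detected in every library, and all 8 were lower in Ogt iKO (median log2 fold change -0.73). Ogt iKO replicate 1 stood apart in 16 fibroblast markers, listed because the cells grew on mouse embryonic fibroblasts. The labels describe a sort against these feeders, with CD90.2 as the mark of the stem cells and CD326 as the mark that excludes fibroblasts. CD90.2 is a product of Thy1, which is among the fibroblast markers used here, and CD326 is the product of Epcam, which is among the pluripotent markers. How far the sort removed fibroblasts was not tested. The summed level of the 16 was 4763 CPM in Ogt iKO replicate 1, 2206 CPM in Ogt iKO replicate 2, and 2454 and 2796 CPM in control replicates 1 and 2, and none of the 16 was at 0 in any library. The treated libraries thus lay on both sides of the controls in this sum, which does not give the direction of each marker. With all libraries 4 of the 16 were called higher and 0 lower. These were Tagln (log2 fold change 2.60), Acta2 (1.72), Pdgfrb (1.61) and Sparc (0.82), all above 0 with any 1 library left out. Acta2 and Sparc lost the call with the robust estimate of the spread. Of the 12 neuron markers, none was at 0 in any library, and 4 of 9 tested were higher and 3 lower. Their sum was 165 and 185 CPM in Ogt iKO and 277 and 270 CPM in control, most of it from Stmn2 (75.2 and 86.7 against 177 and 169.6 CPM) and Tubb3 (21.4 and 26.99 against 62.95 and 64.2 CPM). Nefl (38.2 and 39.6 against 18.1 and 17.5 CPM) and Nefm (10.8 and 9.02 against 2.002 and 1.303 CPM) went the other way, so the sum does not give the direction of the list. Neural progenitor markers summed to 96.4 and 94.8 CPM against 176 and 168 CPM, and markers of the 2-cell-like state to 196 and 212 CPM against 45.5 and 30.1 CPM. In bulk RNA, fewer cells of a type and less RNA per cell cannot be told apart. Across all genes, 33.2% of the 14525 tested were higher in Ogt iKO and 32.0% were lower at an adjusted p under 0.05 (edgeR).

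Together the clusters were a small part of the RNA, and nearly all of it came from the gamma genes. Summed over the 58 members, the treated libraries held 80.1 and 53.9 CPM and the controls 51.2 and 51.5 CPM. Gamma members held 93.0% and 92.8% of these counts in Ogt iKO and 94.3% and 94.7% in control. Beta members held from 4.41% to 5.85% and alpha members from 0.506% to 1.39%. At least 1 count was found for 43 and 40 members in Ogt iKO and for 36 and 34 in control. At more than 3 counts the numbers were 30 and 25 against 24 and 26, so the groups then overlapped. The gain in members with 1 count came from the alpha and beta clusters, because every gamma member had counts in all 4 libraries.

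**Figure D1:**
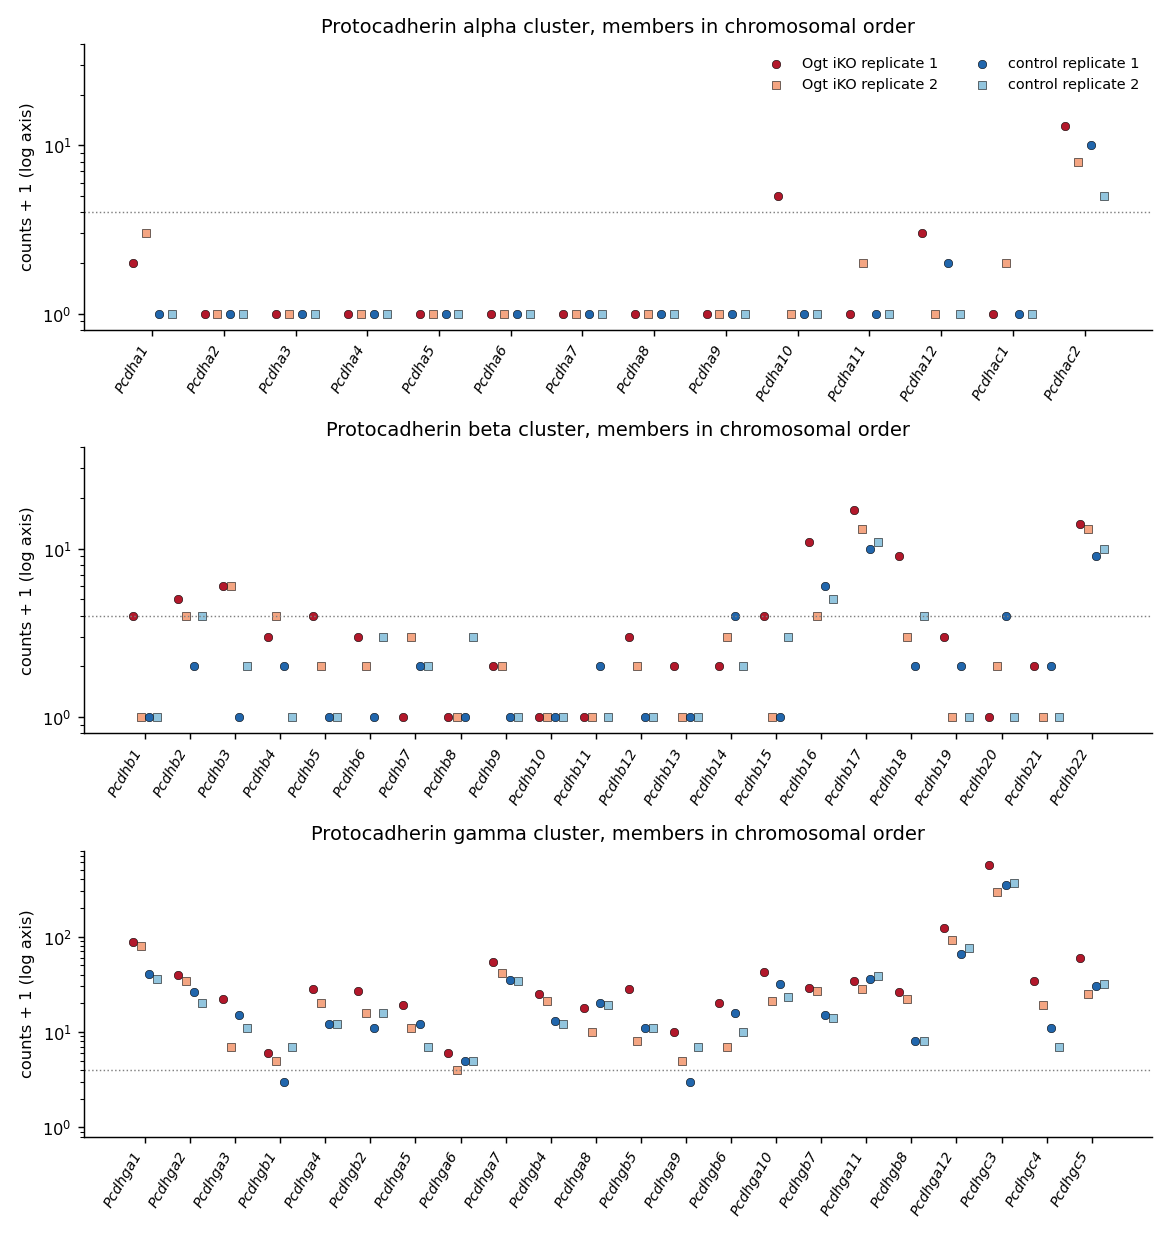
Counts per library (vertical log axis, count plus 1) of each alpha, beta and gamma member in chromosomal order, with 1 symbol per library and a dotted line at 3 counts. Most alpha members sit at 0 counts, most beta members at or under 3, and all gamma members have counts in every library, with Pcdhgc3 highest at 294 to 558 counts.

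The alpha cluster was close to undetected. Its 14 members summed to 19 and 11 counts in Ogt iKO and to 10 and 4 counts in control, which was 1.11 and 0.709 CPM against 0.646 and 0.261 CPM. The ratio of the group means of this sum was 2.01, on 4 to 19 counts per library. On the log2 scale this ratio of 1.01 became 1.80 without control replicate 1 and 0.49 without control replicate 2. No alpha member passed the filter on low counts, and none was tested in the fit of all 4 libraries.

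Pcdhac2, a C-type gene known for its part in the spacing of serotonergic axons, held most of the alpha counts. It had 12 and 7 counts in Ogt iKO and 9 and 4 in control, and the groups overlapped. This was 63.2% (exact 95% binomial interval 38.4 to 83.7) and 63.6% (30.8 to 89.1) of the alpha counts in Ogt iKO, against 90.0% (55.5 to 99.7) and 100% (39.8 to 100) in control. The intervals of single libraries overlapped between the groups, and the difference in this share was not tested.

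The other C-type alpha gene, Pcdhac1, had 0 and 1 counts in Ogt iKO and 0 in both controls. Pcdha10 had 4 and 0 counts in Ogt iKO, Pcdha1 had 1 and 2, and Pcdha11 had 0 and 1, all 3 with 0 in both controls, while Pcdha12 had 2 and 0 counts against 1 and 0. Pcdha2 to Pcdha9, named after their values were seen, had 0 counts throughout. The 13 alpha members other than Pcdhac2 gave 7 and 4 counts in the Ogt iKO libraries and 1 and 0 in the controls, a ratio over both libraries of 10.4 with a counting interval from 1.51 to 447. This interval pools the genes and both libraries of a group, so it leaves out the spread between libraries. Pcdha10 in Ogt iKO replicate 1 alone gave 4 of the counts. With edgeR without a filter, 6 alpha members entered the fit and 0 were called (24.0% and 23.9% of all genes higher and lower), and 0 had an unadjusted p under 0.05 (share of all genes not taken). DESeq2 gave an adjusted p for 1 of them and 0 calls (22.1% and 25.5%).

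The beta cluster was detected at a few counts per gene. It summed to 77 and 49 counts in Ogt iKO and to 35 and 38 in control. In CPM the sums were 4.50 and 3.16 against 2.26 and 2.48, so both treated libraries lay above both controls and the ratio of the means was 1.62. Of the 22 members 16 had at most 3 counts in every library, and Pcdhb10 alone had 0 in all 4.

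The counts came mainly from some members of the part nearest the gamma genes, taken for their counts. Pcdhb19, Pcdhb20 and Pcdhb21 in that part had 0 to 3 counts. Per kb of exon length, Pcdhb3 (0.0811 CPM) and Pcdhb2 (0.0759), near the start, lay above Pcdhb16 (0.0744) and Pcdhb18 (0.0592) in Ogt iKO, with overlapping libraries. In control Pcdhb16 (0.0558) lay above Pcdhb2 (0.0462), and Pcdhb18 (0.0258) above Pcdhb3 (0.0086). Pcdhb16, Pcdhb17, Pcdhb18 and Pcdhb22 together held 61.0% and 59.2% of the beta counts in Ogt iKO and 65.7% and 68.4% in control. Pcdhb17 had 16 and 12 counts in the treated libraries against 9 and 10 in the controls, and Pcdhb22 had 13 and 12 against 8 and 9. In both genes the treated libraries lay above the controls. They were the only beta members that passed the filter, both through the treated libraries alone, with log2 fold changes of 0.47 (SE 0.382, adjusted p 0.316, 95% interval -0.40 to 1.34) and 0.47 (SE 0.393, adjusted p 0.347, 95% interval -0.43 to 1.37), and neither passed the test.

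Pcdhb16 had 10 and 3 counts in the treated libraries against 5 and 4 in the controls, and Pcdhb18 had 8 and 2 against 1 and 3. Both were highest in Ogt iKO replicate 1 with overlapping groups. Nearer the start of the cluster, Pcdhb3 had 5 and 5 counts against 0 and 1, and Pcdhb2 had 4 and 3 against 1 and 3. Of the 2 beta members tested edgeR called 0, where 33.2% of all genes were higher and 32.0% lower, and 0 had an unadjusted p under 0.05 (34.8% and 33.6%). DESeq2 gave an adjusted p for 3 beta members and called 0 (22.1% and 25.5% of all genes). Without a filter 21 members entered the edgeR fit, of which 0 were called (24.0% and 23.9% of all genes) and 1 had an unadjusted p under 0.05, higher in Ogt iKO. The share of all genes at this unadjusted threshold was not taken for the fit without a filter.

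The gamma cluster was expressed throughout, at levels set apart by 1 gene. Levels of different genes were compared per length, as CPM per kb of the exon sequence that a member does not share with other members of its cluster. Pcdhgc3, a C-type gene known for its part in dendrite growth of cortical neurons, stood at 9.65 and 5.60 CPM per kb in Ogt iKO and at 6.67 and 6.997 CPM per kb in control. Its mean of 7.23 CPM per kb over the 4 libraries lay above 74.3% of the 24366 genes with an exon model (for the other genes, the whole exon length was used). The next members in control were Pcdhga12 (0.992 CPM per kb), Pcdhga11 (0.898), Pcdhga1 (0.749), Pcdhga7 (0.701) and Pcdhga10 (0.657). In the control libraries Pcdhga12 (0.909 and 1.08 CPM per kb) overlapped with Pcdhga11 (0.857 and 0.939), Pcdhga1 (0.795 and 0.702) with Pcdhga7 (0.709 and 0.694), and Pcdhga7 with Pcdhga10 (0.766 and 0.549). Pcdhga11 and Pcdhga1 did not overlap. The lowest mean was that of Pcdhga9, at 0.0749 CPM per kb. Its control libraries (0.0372 and 0.113) overlapped with those of Pcdhgb1 (0.0492 and 0.149) and Pcdhga6 (0.0988 and 0.0997), so the lowest place was not resolved. In Ogt iKO the order after Pcdhgc3 was Pcdhga1 (1.55 CPM per kb), Pcdhga12 (1.44), Pcdhga7 (0.926) and Pcdhga4 (0.892). The treated libraries of Pcdhga1 (1.55 in both) lay within those of Pcdhga12 (1.57 and 1.304), and those of Pcdhga7 (0.99995 and 0.853) within those of Pcdhga4 (1.005 and 0.780), so neither pair was resolved. The place of Pcdhga4 also rests on the shortest own exon length of the cluster, 1570 bases, with 66.8% of its exon length shared. Before division by length, Pcdhga4 (mean 1.40 CPM in Ogt iKO) lay below Pcdhga2 (2.20) and Pcdhga10 (1.87), so its rank per length is uncertain. The median level over members was 0.517 CPM per kb in control for the 12 gamma A genes and 0.208 CPM per kb for the 7 gamma B genes. In Ogt iKO these medians were 0.706 and 0.375 CPM per kb.

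The gamma sum was 74.5 and 50.1 CPM in Ogt iKO against 48.3 and 48.7 CPM in control. Both treated libraries lay above both controls, but Ogt iKO replicate 2 by little. The ratio of the means was 1.28 with both treated libraries, and the log2 ratio fell from 0.36 to 0.045 without Ogt iKO replicate 1. Without Pcdhgc3 the other 21 members summed to 41.9 and 31.1 CPM against 25.8 and 25.1 CPM, a ratio of 1.44. Gamma B genes summed to 9.001 and 6.38 CPM against 4.52 and 4.63 CPM, and gamma A genes to 27.6 and 22.03 CPM against 18.7 and 18.05 CPM. Both sums were higher in each treated library than in each control. The 3 gamma C genes summed to 37.9 and 21.65 CPM against 25.05 and 26.1 CPM and overlapped.

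Of the 22 gamma members 18 passed the filter, 6 were called higher, 0 were called lower and 12 were not called. The 6 were 33.3% of those tested, against 33.2% of all genes called higher and 32.0% called lower, so the share of higher calls was that of the background. For gamma members lower in Ogt iKO, edgeR gave 0 at an unadjusted p under 0.05 (33.6% of all genes) and DESeq2 gave 0 calls (25.5%). At that unadjusted threshold edgeR gave 7 gamma members higher (34.8% of all genes). The median log2 fold change of the 18 was 0.58, where that of all genes tested was 0.024, and 15 of the 18 were above 0. Both treated libraries lay above both controls for 9 of the 18 (42.3% of all genes tested) and below them for 2 (40.9%). A member that passed the filter only through the group where it is high had to differ, so these counts describe the tested members and not the cluster. DESeq2 called 1 gamma member, Pcdhga1, against a background of 22.1% higher and 25.5% lower. With library totals 8 gamma members were called higher, where 42.0% of all genes were higher and 22.6% lower. Upper-quartile factors gave 7 (35.2% and 29.6%), the fit without a filter 4 (24.0% and 23.9%) and the filter at a CPM of 1 gave 7 (33.9% and 32.7%). Leaving out Ogt iKO replicate 2 gave 8 (32.1% and 31.8%), leaving out control replicate 1 gave 3 (26.3% in each direction) and leaving out control replicate 2 gave 2 (26.5% and 26.8%). At an adjusted p under 0.01 there were 2 (25.4% and 25.1%), and with the replicate number as a block 6 (33.9% and 32.5%).

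**Figure D2:**
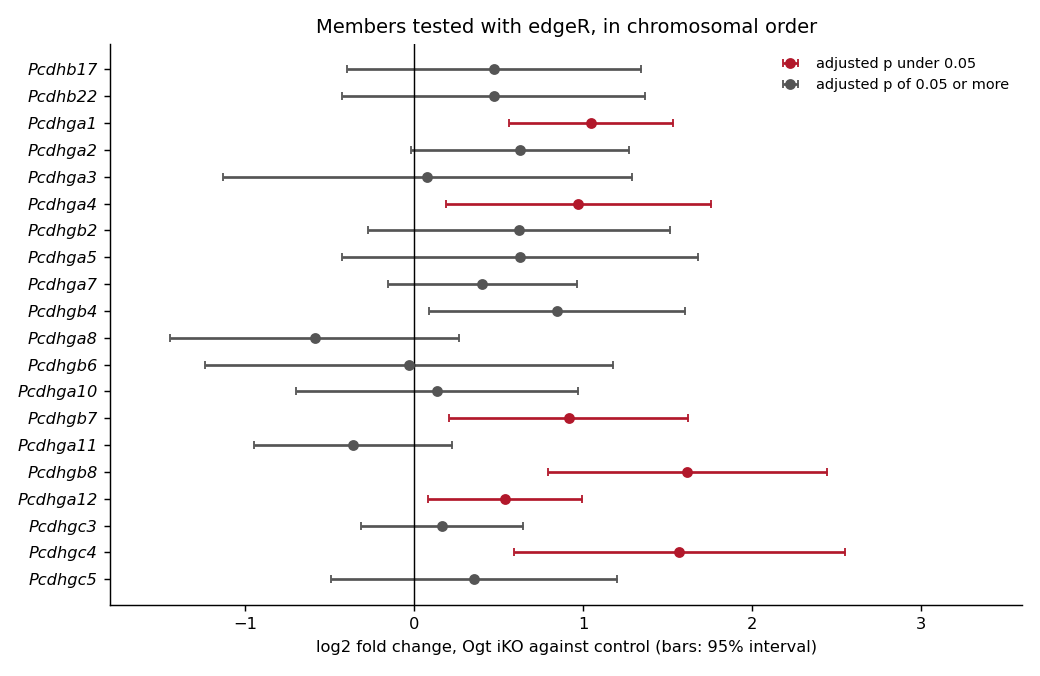
Log2 fold changes (horizontal axis, Ogt iKO against control) of the 20 members tested, in chromosomal order, with 95% intervals from edgeR and called members in red. The 6 intervals in red lie above 0, from Pcdhga12 at 0.54 to Pcdhgb8 at 1.62, and Pcdhgc3, the most abundant member, lies at 0.16 with an interval that spans 0.

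Pcdhga1, the first gene of the gamma cluster (chromosome 18, 37661775 to 37841870, RefSeq GRCm38, constant exons included), had 86 and 78 counts in the treated libraries against 40 and 35 in the controls. This came to 5.03 CPM ± 0.00125 (SD, n = 2) with 4-OHT and 2.43 CPM ± 0.214 (SD, n = 2) in control, with no overlap. The log2 fold change was 1.04 (SE 0.213, adjusted p 0.00256, edgeR), a 2.06-fold rise. Pcdhga1 was called in all 12 alternative fits, at 0.95 to 1.21 on the log2 scale.

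Pcdhgb8, which RefSeq lists as a transcribed pseudogene, had 25 and 21 counts in the treated libraries against 7 and 7 in the controls. The groups lay far apart, at 1.41 CPM ± 0.0766 (SD, n = 2) and 0.454 CPM ± 0.00288 (SD, n = 2). Its counts were high enough for the filter in the treated libraries alone, so it had to differ to be tested. The fitted log2 change was 1.62 (SE 0.363, adjusted p 0.00427, edgeR). It was called in 11 of 12 alternative fits, the exception being DESeq2 (adjusted p 0.108). Copies in other genes covered 9.18% of its 50-base stretches.

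Pcdhgc4, a C-type gene known to be needed for the survival of spinal and cortical interneurons, had 33 and 18 counts in the treated libraries against 10 and 6 in the controls. This came to 1.54 CPM ± 0.544 (SD, n = 2) against 0.518 CPM ± 0.180 (SD, n = 2), and the groups did not overlap although each was spread. Like Pcdhgb8 it passed the filter through the treated libraries alone. The log2 fold change was 1.57 (SE 0.428, adjusted p 0.0111, edgeR). It was not called without Ogt iKO replicate 1, without control replicate 2 or by DESeq2, and its log2 fold change ran from 1.15 to 1.96 over the fits that left out 1 library, with the lowest value without Ogt iKO replicate 1.

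The other 3 called members had smaller changes and larger adjusted p values. Pcdhgb7 had 28 and 26 counts in the treated libraries against 14 and 13 in the controls, with no overlap (log2 fold change 0.91, SE 0.309, adjusted p 0.0285). Pcdhga4 had 27 and 19 counts against 11 and 11, again with no overlap (0.97, SE 0.344, adjusted p 0.0343). Pcdhga12, the gamma A member with the most counts, had 122 and 92 counts against 64 and 75, with 6.53 CPM ± 0.851 (SD, n = 2) with 4-OHT and 4.51 CPM ± 0.533 (SD, n = 2) in control (0.54, SE 0.199, adjusted p 0.0412). Without Ogt iKO replicate 1, without control replicate 1, without control replicate 2 or with DESeq2, none of these 3 was called. Pcdhgb7 was also lost without Ogt iKO replicate 2, and Pcdhga4 and Pcdhga12 without a filter on low counts. Pcdhgb4, named after its values were seen, sat just outside the threshold, with 24 and 20 counts against 12 and 11 and a fitted log2 change of 0.85 (SE 0.332, adjusted p 0.05001). It was called with library totals alone, with upper-quartile factors and with the stricter filter.

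Members that were not called included some of the most abundant ones. Pcdhga7 had 53 and 41 counts against 34 and 33, above the controls in both libraries, with a fitted log2 change of 0.40 (SE 0.245, adjusted p 0.178, 95% interval -0.16 to 0.96). Pcdhga11 had 33 and 27 counts against 35 and 38, below the controls in both libraries, with a fitted log2 change of -0.36 (SE 0.257, adjusted p 0.239, 95% interval -0.95 to 0.22). Pcdhga8, named after its values were seen, was the other tested member below the controls in both libraries, with 17 and 9 counts against 19 and 18 (-0.59, SE 0.374, adjusted p 0.194). Pcdhga11 and its direct neighbours on the chromosome, Pcdhgb7 and Pcdhgb8, thus had values on opposite sides of 0, but the difference between neighbouring members was not tested. The 4 gamma members that did not pass the filter were Pcdhga6, Pcdhga9, Pcdhgb1 and Pcdhgb5. Pcdhga6, Pcdhga9 and Pcdhgb1 had 2 to 9 counts, and Pcdhgb5 had 27 in Ogt iKO replicate 1, 7 in replicate 2 and 10 in each control. All 4 were named after their values were seen.

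Pcdhgc3 was the gamma gene with the most counts, 558 and 294 with 4-OHT against 349 and 363 without. This came to 25.8 CPM ± 9.67 (SD, n = 2) with 4-OHT and 23.1 CPM ± 0.789 (SD, n = 2) in control. The treated libraries lay on either side of the controls, at 32.6 and 18.9 CPM against 22.5 and 23.6 CPM. The log2 fold change was 0.16 (SE 0.211, adjusted p 0.517, 95% interval -0.32 to 0.64). Leaving out 1 treated library decided its sign, with -0.28 (adjusted p 0.0726) without Ogt iKO replicate 1 and 0.47 (adjusted p 0.00123) without Ogt iKO replicate 2. Pcdhgc5 showed the same split, with 58 and 24 counts against 29 and 31, a fitted log2 change of 0.35 (SE 0.371, adjusted p 0.423) and values of -0.32 and 0.77 in the same 2 fits, the second of them called.

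The make-up of the gamma counts was then compared within each library, which does not depend on the scaling between libraries. Pcdhgc3 took 43.8% (exact 95% binomial interval 41.0 to 46.5) and 37.8% (34.4 to 41.4) of the gamma counts in Ogt iKO, against 46.7% (43.0 to 50.3) and 48.5% (44.9 to 52.2) in control. Both treated libraries were below both controls, the second beyond the counting intervals. The gamma A and B genes together had 1.12 and 1.5 counts for each count of Pcdhgc3 in Ogt iKO and 1.03 and 0.959 in control. Gamma B genes took 12.1% (10.3 to 14.0) and 12.7% (10.5 to 15.3) with 4-OHT against 9.36% (7.37 to 11.7) and 9.49% (7.49 to 11.8) without, and these intervals overlapped. Gamma A genes took 37.0% and 44.02% against 38.8% and 37.03%, with the groups overlapping. Pcdhga1 took 6.75% and 10.04% against 5.35% and 4.68%. With 2 libraries a group, the smallest p of an exact permutation test is 0.333, and these shares are given without a test. Reads without molecular identifiers are not independent molecules, and the intervals cover counting error only.

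**Figure D3:**
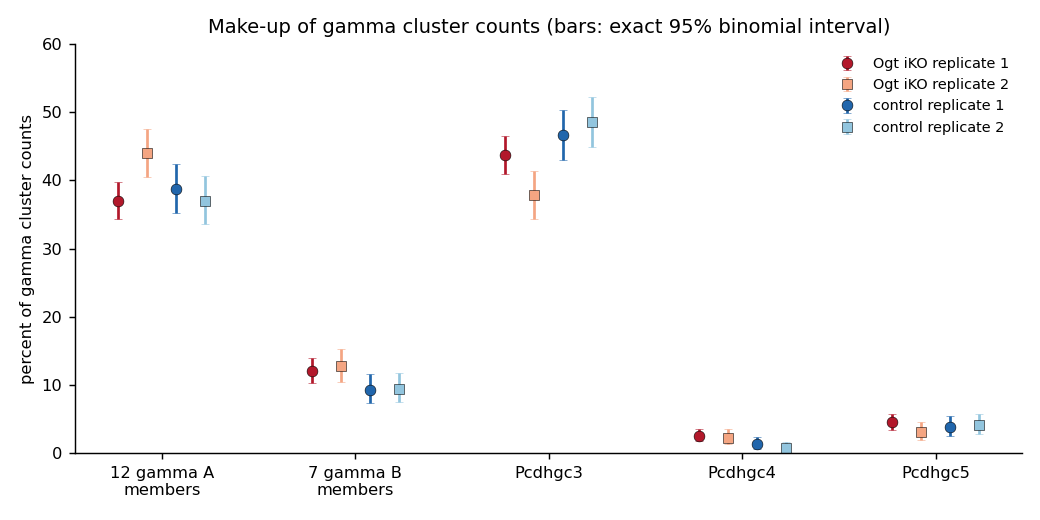
Percent of the gamma cluster counts (vertical axis) held by the 12 gamma A genes, the 7 gamma B genes and each gamma C gene in the 4 libraries, with exact 95% binomial intervals. Pcdhgc3 is lower in both Ogt iKO libraries (43.8% and 37.8%) than in the controls (46.7% and 48.5%), and the gamma B share is higher with intervals that overlap those of the controls.

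The library with the most fibroblast marker RNA was also the one with the highest gamma levels. In CPM, Ogt iKO replicate 1 lay above Ogt iKO replicate 2 for 17 of the 18 tested gamma members, against 49.8% of all genes tested. In the controls, replicate 1 lay above replicate 2 for 11 of the 18 (52.3% of all genes). Ogt iKO replicate 2, whose fibroblast marker sum was the lowest of the 4 libraries, lay above both controls for 9 tested gamma members (45.9% of all genes) and below both for 7 (46.0%). Without Ogt iKO replicate 1, 2 gamma members were called higher, namely Pcdhga1 and Pcdhgb8, and 0 lower by edgeR (1 lower at an unadjusted p under 0.05, DESeq2 not run without this library), where 30.3% of all genes were higher and 29.9% lower, and the median log2 fold change of the 18 was 0.27. The median log2 fold change of the fibroblast markers themselves was 0.34 with all libraries and -0.65 without Ogt iKO replicate 1. Without Ogt iKO replicate 1 the log2 fold change was 1.05 for Pcdhga1 and 1.56 for Pcdhgb8, against 1.04 and 1.62 with it. The part of fibroblast RNA in these results was not tested.

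**Figure D4:**
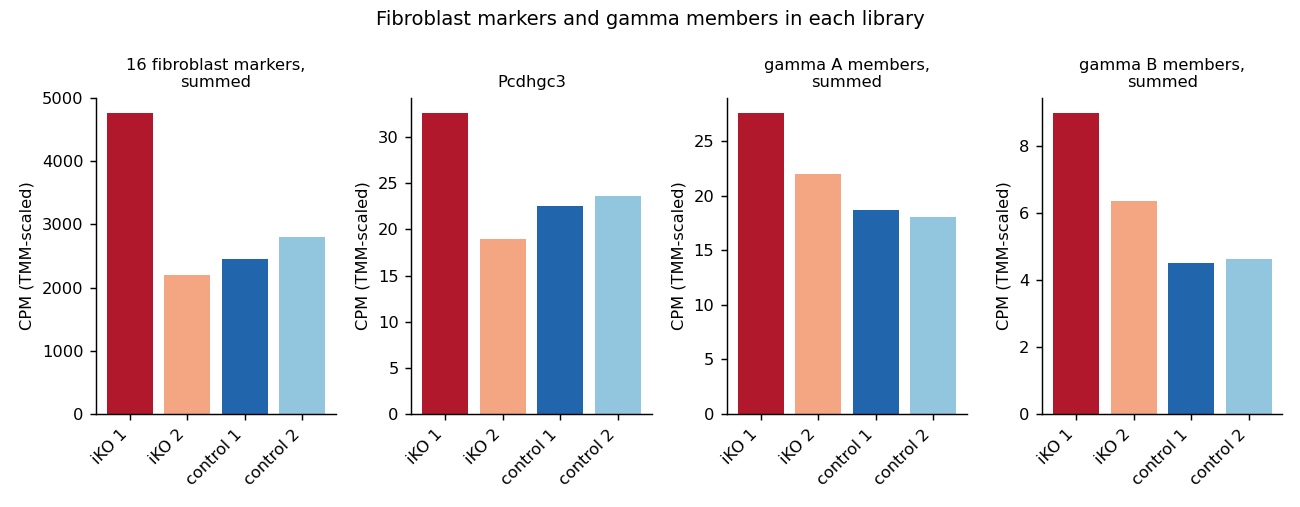
Summed CPM of the 16 fibroblast markers, CPM of Pcdhgc3, and summed CPM of the gamma A and of the gamma B genes (4 panels, each axis from 0) in each library. The fibroblast sum and Pcdhgc3 are both highest in Ogt iKO replicate 1 (4763 and 32.6 CPM) and lowest in Ogt iKO replicate 2 (2206 and 18.9 CPM), while the gamma A and B sums of Ogt iKO replicate 2 (22.03 and 6.38 CPM) stay above both controls.

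Protocadherins and large cadherins outside the clusters had calls in both directions, with all libraries at shares not above those of all genes. Of 22 listed genes 17 were tested, with 5 higher, 4 lower and 8 not called, beside 33.2% higher and 32.0% lower over all genes tested. A gene that passed the filter only through the group where it is high had to differ to be tested. Without a filter 6 of 22 were higher and 4 lower (24.0% and 23.9% of all genes). Without Ogt iKO replicate 2, 10 of 19 tested were higher and 4 lower (32.1% and 31.8% of all genes), and without control replicate 1, 3 of 19 were higher and 3 lower (26.3% in each direction). Pcdh1, a non-clustered protocadherin that lies beyond the gamma cluster on the same chromosome, had 220 and 193 counts in the treated libraries against 624 and 509 in the controls and fell (log2 fold change -1.54, SE 0.119, adjusted p 1.42e-05, edgeR). Pcdh19, an adhesion protein linked to an epilepsy carried on the X chromosome, rose from 172 and 169 counts to 477 and 350 (1.19, SE 0.136, adjusted p 0.000103). Celsr1 and Celsr3, large cadherins of the planar cell polarity family, fell by 1.89 and 2.17 on the log2 scale. Pcdh17, named after its values were seen, had 26 and 32 counts against 4 and 11. Its control libraries alone would not have passed the filter. It was called higher, with a log2 fold change of 1.86. This call was lost without control replicate 1, and its log2 fold change ran from 1.299 to 2.74 when 1 library was left out. The median over the list went from 0.52 on the log2 scale with all libraries to 0.067 without Ogt iKO replicate 1.

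Classical cadherins and the catenins that bind them had 9 higher and 2 lower among 17 tested of 24 listed, beside 33.2% and 32.0% of all genes. A gene that passed the filter only through the group where it is high had to differ to be tested. Without a filter 7 of 24 were higher and 2 lower (24.0% and 23.9% of all genes). The median log2 fold change of the list was 0.27, and it ran from 0.25 to 0.83 when 1 library was left out. DESeq2 called 5 higher and 2 lower among the 24 genes in its fit, some of which may lack an adjusted p. Of all genes with an adjusted p from DESeq2, 22.1% were higher and 25.5% lower. Cdh1, the E-cadherin of stem cell colonies, had 9041 and 8369 counts against 10135 and 10527 (log2 fold change -0.33, SE 0.0567, adjusted p 0.00105). Cdh24 rose by 1.15 and Ctnnd2, the neural delta catenin, by 1.28 on the log2 scale, both from low levels. The clustered protocadherins lack the catenin-binding tail of these proteins.

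Genes that act on the protocadherin promoters were compared next. Among 15 chromatin architecture factors, 3 were higher, 6 lower and 6 not called (33.2% and 32.0% of all genes higher and lower), with a median log2 fold change of -0.10. Ctcf, the zinc finger protein that binds these promoters and enhancers, had 4270 and 4130 counts in the treated libraries against 4653 and 4475 in the controls. Its log2 fold change of -0.20 (SE 0.0587, adjusted p 0.0158) lost the call with library totals (-0.031), without Ogt iKO replicate 1 and without control replicate 1. The cohesin ring genes Smc1a and Smc3 fell by 1.16 and 0.71, Wapl, which releases cohesin from DNA, fell by 0.49, and the cohesin subunit gene Stag1 rose by 0.42. Library totals alone shift the median of all genes from 0.024 to 0.19, and under them this list had 6 higher and 4 lower (42.0% and 22.6% of all genes), with Smc1a, Smc3, Wapl and Stag1 still called in the same direction.

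Among 21 silencing factors, 1 was higher, 18 lower and 2 not called, where 33.2% of all genes were higher and 32.0% lower, with a median log2 fold change of -0.38. With library totals 3 were higher and 12 lower (42.0% and 22.6% of all genes). Smchd1, a chromatin protein that represses the protocadherin clusters, had 3757 and 3241 counts against 3292 and 3388 and a fitted log2 change of -0.016 (SE 0.0576, adjusted p 0.818). With library totals it was called higher, at 0.15. Dnmt3b, the methyltransferase that acts on protocadherin promoters in the embryo, had 9049 and 9067 counts against 14563 and 13996. Its log2 fold change was -0.73. Ezh2, the methyltransferase of Polycomb complex 2, fell by 1.49, Uhrf1 by 0.90 and Dnmt3a by 0.96, and Dnmt3l rose by 1.31. Of the TET dioxygenases, which oxidise methylated cytosine, Tet1 fell by 0.90, Tet2 fell by 1.496 and Tet3 rose by 1.33. DNA methylation at the clusters was not analysed here.

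Proteins that cut or bind protocadherins had 7 higher, 3 lower and 11 not called among 21 tested, where 33.2% of all genes were higher and 32.0% lower, so the share of higher calls was near the background. Adam10, the protease that sheds protocadherin ectodomains, had 2355 and 1873 counts against 1385 and 1229 (log2 fold change 0.61, SE 0.0834, adjusted p 0.000281). Ncstn, a subunit of the gamma-secretase that makes the next cut, rose by 0.64 on the log2 scale. Nckap1, a subunit of the WAVE complex that drives actin branching, fell by 0.40. Ptk2 (focal adhesion kinase), which protocadherin tails inhibit, had a log2 fold change of 0.25, and Marcks, a membrane protein that binds actin, had 898 and 417 counts against 1464 and 1257 (-1.15). Marcks lost the call with the robust estimate of the spread, and Ptk2 did without control replicate 2.

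Genes around the clusters did not share 1 direction. Between the beta and gamma clusters lie Slc25a2, with 1 and 1 counts in the treated libraries against 3 and 2 in the controls, and Taf7, a subunit of the general transcription factor TFIID, with 3610 and 3458 counts against 3919 and 3543 (log2 fold change -0.16, SE 0.065, adjusted p 0.0595). Taf7 changed sign with library totals (0.011) and was called lower in other fits, among them DESeq2. Upstream of the alpha genes, 8 of the 10 nearest genes were tested, with 1 higher and 6 lower, where 33.2% and 32.0% of all genes were. With library totals 3 of 8 were lower (22.6% of all genes), and without Ogt iKO replicate 1, 4 of 8 were (29.9%). The median log2 fold change of these genes was -0.32 with all libraries and -0.27 without control replicate 1. DESeq2 called 0 higher and 6 lower among the 10 genes in its fit, some of which may lack an adjusted p. Of all genes with an adjusted p from DESeq2, 22.1% were higher and 25.5% lower. Ik fell by 0.40 and Hars2 by 0.52 on the log2 scale. Downstream of the gamma genes, 7 of 10 were tested, with 2 higher and 1 lower, the last being Pcdh1. The higher genes were Fchsd1 (1.13) and Rell2 (1.25), and Rell2 lost the call without a filter, with DESeq2 and when Ogt iKO replicate 2, control replicate 1 or control replicate 2 was left out. Diaph1, the gene next to the gamma cluster, had a log2 fold change of -0.056 (adjusted p 0.501) that changed sign with library totals (0.11).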

How the data were processed

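Polyadenylated RNA of 4 libraries was measured, 2 of Ogt iKO and 2 of control, grouped by title. The authors deposited raw read counts per gene symbol, 1 table per library, with no normalization. Per the submitters' processing notes, STAR, Picard and mm10 were used. Versions, annotation, the strand counted and the treatment of reads that map to several places are not given in the sources used here. Per the labels' protocols the kit was stranded. The counts were fitted by the quasi-likelihood test of edgeR 4.0.16 (R 4.3.3, TMM factors, filterByExpr), all genes and libraries in 1 fit, with Benjamini-Hochberg adjustment over 14525 genes, a threshold of 0.05 and code tested on simulated data. Each standard error was derived from the fold change and the test statistic. Of the members, 20 passed the filter. Positions are from RefSeq (58 members matched) and exon lengths from GENCODE M21 (57 matched), both GRCm38. Sequences of the members are not reported here.

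The members and lists were chosen with earlier results of these data known. The text names all C-type members and, in each cluster, up to 6 members with the highest mean count and up to 6 called members with the smallest adjusted p, and of each list mainly the 4 genes with the smallest adjusted p. One gene that this rule names is not reported here. Ctcf, Smchd1, Dnmt3b, Ptk2, Marcks, Diaph1, Rell2 and Pcdh17 were added for their role or place after their values were seen, as were members outside the rule. Alternatives were RLE or upper-quartile factors, library totals, DESeq2 1.42.0, no filter, a CPM of at least 1 in 2 libraries, robust spread, the replicate number as a block, a threshold of 0.01 and each library left out. An unadjusted threshold was added after seeing the data.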

Additional observations from a re-analysis of the deposited data

How the results depend on the processing

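Calls rest on few counts and 2 libraries a group. The number of gamma members called higher, 6, was 1 with DESeq2 (22.1% of all genes) and 2 at an adjusted p under 0.01 (25.4%), and ran from 2 (Pcdhga1 and Pcdhgb8, without Ogt iKO replicate 1 and without control replicate 2) to 8 (without Ogt iKO replicate 2) when 1 library was left out, with 3 without control replicate 1. No alpha or beta member was called, and no gamma member was called lower, in any of the fits run. With the replicate number as a block 6 gamma members were called higher (33.9% of all genes), the same 6 genes, and no call of a member changed. Same-numbered libraries of the 2 groups deviated together with a correlation of 0.086 across genes. The log2 ratio of the alpha sum went from 1.01 to 3.37 without Pcdhac2, on 1 count in the controls. With Pcdhac2 kept, it ran from 0.49 to 1.80 when 1 library was left out. The difference in members detected, 6.5 on average, was 2.5 at more than 3 counts and 3.0 at 10 or more. Among members not called, fold changes changed sign for Pcdhgb6 with library totals (0.14) and upper-quartile factors (0.010), and when 1 library was left out for Pcdhgb6 (-0.99 to 0.49), Pcdhga3 (-0.99 to 0.63), Pcdhga10 (-0.41 to 0.49), Pcdhgc3 (-0.28 to 0.47) and Pcdhgc5 (-0.32 to 0.77). The cause of these changes was not tested.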
